A study of Mus musculus with 7 samples.

Results

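The cytochrome P450 genes described here are the 36 gene symbols, of 12958 in the tables, that begin with Cyp followed by a family number, a subfamily letter and a gene number. They span 10 families, of which family 2 had 17 members, family 4 had 10 and family 3 had 2, while families 1, 7, 20, 24, 26, 27 and 39 had 1 each. GENCODE annotates 129 symbols of this form in the mouse, and those without values in these tables were not analysed here. Of the 36 members 35 are annotated as protein coding and 1, Cyp4b1-ps2, as a pseudogene.

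The tables hold RNA-seq values of glomeruli, the capillary tufts that filter blood in the kidney, isolated from male BALB-C mice (n = 7). The knockdown group (n = 3) was labelled as a Shroom3 knockdown of 6 weeks, and the control group (n = 4) came from littermates that lacked the siRNA transgene. The product of Shroom3 binds actin and shapes epithelial cells. Mice of both groups were given doxycycline, in their food and in their water, between the ages of 8 and 14 weeks, for 6 weeks in all, so the controls carry the drug exposure as well. The promoter that drives the transgene is not given in the sources used here. By their titles the libraries were of 2 styles, with G for 2 knockdown and 3 control libraries and CB6 for 1 knockdown and 1 control library.

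Cytochrome P450 enzymes are heme proteins that insert an oxygen atom into drugs, solvents, fatty acids, steroids and vitamins. Most sit in the endoplasmic reticulum and take electrons from P450 reductase, while a few act in mitochondria and take them from ferredoxin. In the kidney the drug- and fatty acid-metabolising members are best known from the proximal tubule, and several of them differ between male and female mice. Proximal tubule RNA was present in these glomerular libraries alongside RNA of the tuft. The podocyte gene Podxl had log2 values of 16.96 to 17.25 in knockdown and 16.58 to 16.99 in control libraries, and all 28 markers of a proximal tubule list without Cyp genes had values too.

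Shroom3 itself averaged 10.87 ± 0.06 log2 units (SD, n = 3) in knockdown and 11.05 ± 0.22 log2 units (SD, n = 4) in control mice, and its difference of -0.19 did not pass the test (limma adjusted p = 0.417; p-values throughout are adjusted by Benjamini-Hochberg over all symbols). Its values thus give no check of the labels, and the groups are named as labelled. All values are on the authors' log scale, read as log2, and are not known to be corrected for gene length, so levels are compared between libraries and not between genes. Sequencing depth is unknown. The replicates are separate mice by the study's design text, which counts animals.

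In knockdown glomeruli 4 Cyp genes fell and 1 rose. Cyp2e1, Cyp2d12, Cyp2a4 and Cyp4b1 fell, with log2 fold changes of -3.26, -2.85, -2.16 and -1.06, and Cyp2d26 rose by 0.85. These 5 of 36 members (13.9%) compare with 3.02% of all 12958 symbols at the same threshold, a limma fit over all symbols with an adjusted p under 0.05. With title style as a covariate 4 members passed, against 1.47% of all symbols, and Cyp2a4 did not (limma adjusted p = 0.0572). A log2 fold change of at least 1 in either direction, with no test, was found for 6 members (16.7%) and for 1% of all symbols. Members differed in both directions, with 21 negative and 15 positive. The median log2 fold change was -0.05 over the members and 0.02 over all symbols. Without the multi-copy clusters (Cyp2a, Cyp2b, Cyp2c, Cyp2d, Cyp2j, Cyp3a, Cyp4a and Cyp4f) the members' median was -0.25. That is the value of a single gene, Cyp2s1, and the smaller set still holds Cyp4b1 and its pseudogene. Regardless of direction, the median size of the log2 fold change was 0.35 over the members and 0.11 over all symbols. In 15 of 36 members (41.7%) all knockdown libraries lay on one side of all control libraries, against 18.4% of all symbols. Of these 7 were higher (10.8% of all symbols) and 8 lower (7.55% of all symbols). In bulk RNA such as this, fewer cells of a type and less RNA per cell cannot be told apart.

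**Figure D1:**
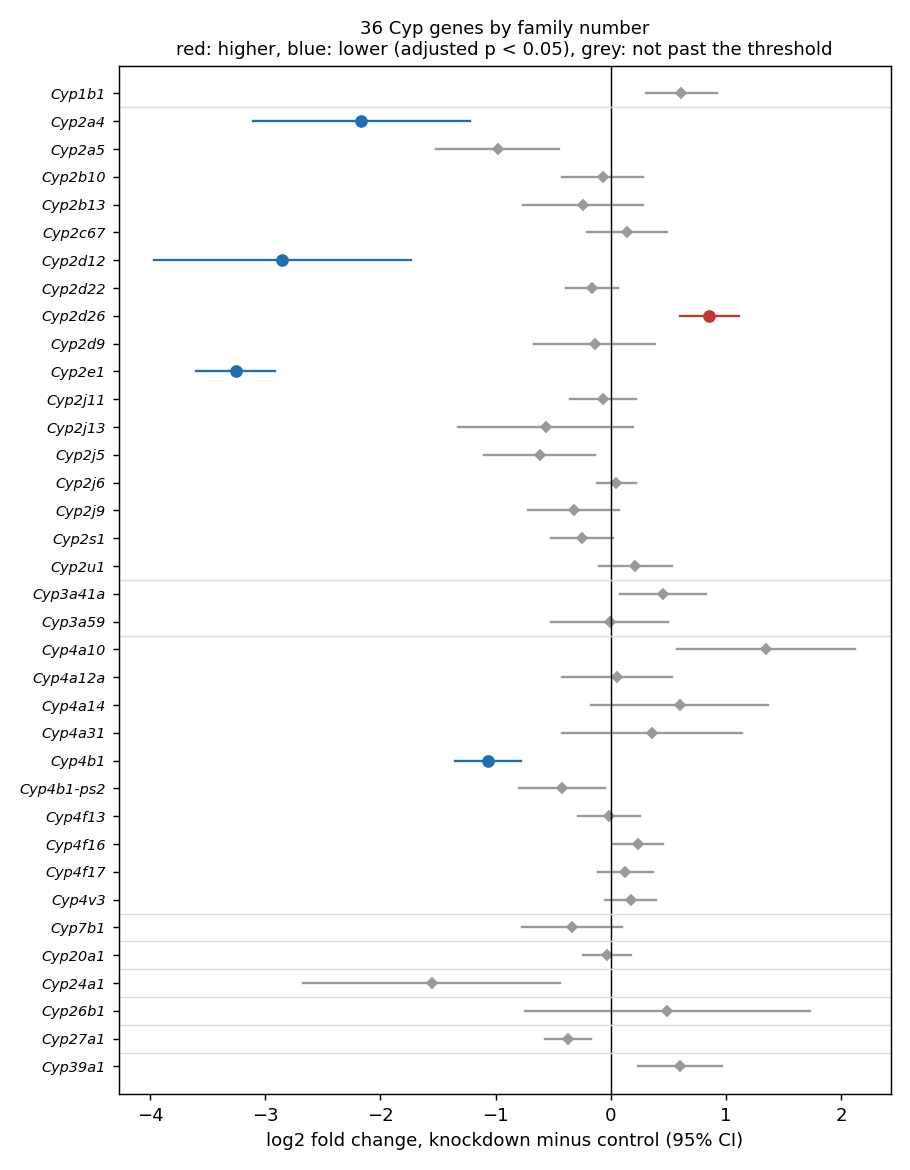
Log2 fold change (knockdown minus control, horizontal axis) with its 95% confidence interval for each of the 36 Cyp genes, ordered by family number down the page. Genes past the adjusted threshold are blue where lower (Cyp2a4, Cyp2d12, Cyp2e1, Cyp4b1) and red where higher (Cyp2d26), and the other members, in grey, did not pass it, also where their interval, which is not adjusted, leaves out 0.

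Cyp2e1, which oxidises ethanol, acetone and small solvents, had the largest difference of the family. Its log2 expression was 10.38, 9.94 and 10.33 in knockdown libraries, against 13.24, 13.53, 13.32 and 13.81 in control libraries. No knockdown library came within 2 log2 units of a control library. Knockdown mice averaged 10.22 ± 0.24 (SD, n = 3) and control mice 13.48 ± 0.25 (SD, n = 4), a level 9.57-fold higher in controls (log2 fold change -3.26, SE 0.15, 95% CI -3.60 to -2.91; limma adjusted p = 7.66e-05). The difference was -3.20 within the libraries titled G and -3.48 within the CB6 pair. Cyp2e1 passed in all 7 fits that left out 1 library, with limma adjusted p between 6.31e-05 and 0.000955. The gene lies on GRCm38 chromosome 7, 140763739 to 140774987, plus strand (ENSMUSG00000025479.9), and 3.87% of the 50-base windows of its transcripts also occur in transcripts of other genes.

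Next to this uniform fall, the Cyp2a genes were lower with more scatter. Cyp2a4 hydroxylates testosterone in the mouse, and its neighbour Cyp2a5 hydroxylates coumarin and nicotine. Cyp2a4 had a log2 expression of 8.11, 7.11 and 6.75 in knockdown libraries, against 8.68, 9.34, 9.59 and 10.35 in control libraries. The groups did not overlap, but the highest knockdown and the lowest control library lay close together, and the log2 fold change was -2.16 (SE 0.41; limma adjusted p = 0.0320). A covariate for title style ended the call of Cyp2a4 (log2 fold change -2.18, limma adjusted p = 0.0572), and its difference was -1.59 within the libraries titled G and -3.59 within the CB6 pair. It also failed without control replicate 3 (adjusted p = 0.0657), control replicate 4 (0.0642), knockdown replicate 2 (0.137) or knockdown replicate 3 (0.111), each by limma.

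Cyp2a5 had a log2 expression of 9.79, 9.41 and 10.42 in knockdown libraries, against 10.88, 10.98, 11.12 and 10.44 in control libraries. Its CB6 libraries, 10.42 and 10.44, were nearly equal, so that the difference came from the libraries titled G. Over all libraries the log2 fold change was -0.98 (SE 0.23) and did not pass (limma adjusted p = 0.0650), while in the libraries titled G alone it was -1.39 and passed (limma adjusted p = 0.0190). Without knockdown replicate 3, the CB6 library, it was -1.25 and passed as well (limma adjusted p = 0.0261). Of the 50-base windows of Cyp2a4 transcripts, 36.1% also occur in Cyp2a5, and how the counting divided such reads is not given in the sources used here, so the split between these genes is uncertain.

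Within the Cyp2d cluster of chromosome 15, members moved in opposite directions. These genes are mouse relatives of the human drug-metabolising enzyme of the same subfamily. Cyp2d26 had a log2 expression of 12.38, 12.17 and 12.09 in knockdown libraries, against 11.10, 11.55, 11.45 and 11.36 in control libraries. Every knockdown library was above every control library, with a log2 fold change of 0.85 (SE 0.11, 95% CI 0.60 to 1.11; limma adjusted p = 0.00627), and it passed in all 7 fits that left out 1 library. Cyp2d12 had 5.35, 6.42 and 4.79 in knockdown libraries, against 7.82, 8.48, 7.69 and 9.49 in control libraries. The groups were well apart while each spread over more than 1 log2 unit, with a log2 fold change of -2.85 (SE 0.49; limma adjusted p = 0.0219).

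The Cyp2d12 values in knockdown libraries are among the low ones of the tables, whose minimum is 2.32, so the size of its fold is uncertain. With a pseudocount of 64 on the linear scale it was -1.83 and still passed (limma adjusted p = 0.0341). It did not pass without knockdown replicate 1 (limma adjusted p = 0.0783) or knockdown replicate 3 (limma adjusted p = 0.0804), and its difference was -2.11 among libraries titled G and -4.70 in the CB6 pair. The other measured Cyp2d genes, Cyp2d22 and Cyp2d9, had log2 fold changes of -0.16 and -0.14 with overlapping groups. Of the 50-base windows of Cyp2d26 transcripts 9.49% occur in other genes, and 7.61% of those of Cyp2d12.

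The RefSeq promoter windows of 4 of these genes are shown because the Cyp2a pair can be compared base by base and because Cyp2e1 and Cyp2d26 went in opposite directions. Each line gives the 250 bases before the RefSeq start on GRCm38.p6, in the direction of the gene, with TATAAA or GTTAAT, on either strand, in capitals. The windows are chr7:140763569-140763818 (plus) for Cyp2e1, chr15:82794246-82794495 (minus) for Cyp2d26, chr7:26306942-26307191 (plus) for Cyp2a4 and chr7:26835089-26835338 (plus) for Cyp2a5.
Cyp2e1: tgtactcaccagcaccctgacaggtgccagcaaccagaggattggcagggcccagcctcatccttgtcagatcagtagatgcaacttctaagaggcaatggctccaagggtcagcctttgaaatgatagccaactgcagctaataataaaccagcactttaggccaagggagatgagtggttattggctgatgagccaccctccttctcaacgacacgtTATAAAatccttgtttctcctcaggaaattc
Cyp2d26: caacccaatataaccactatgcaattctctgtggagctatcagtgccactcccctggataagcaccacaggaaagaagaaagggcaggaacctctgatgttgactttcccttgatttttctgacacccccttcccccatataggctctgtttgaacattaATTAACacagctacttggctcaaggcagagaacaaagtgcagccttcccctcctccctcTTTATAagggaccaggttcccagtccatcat
Cyp2a4: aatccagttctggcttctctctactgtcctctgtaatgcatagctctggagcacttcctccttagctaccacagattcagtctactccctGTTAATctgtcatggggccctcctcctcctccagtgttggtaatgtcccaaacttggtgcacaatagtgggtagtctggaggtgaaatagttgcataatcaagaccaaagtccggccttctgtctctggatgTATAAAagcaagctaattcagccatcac
Cyp2a5: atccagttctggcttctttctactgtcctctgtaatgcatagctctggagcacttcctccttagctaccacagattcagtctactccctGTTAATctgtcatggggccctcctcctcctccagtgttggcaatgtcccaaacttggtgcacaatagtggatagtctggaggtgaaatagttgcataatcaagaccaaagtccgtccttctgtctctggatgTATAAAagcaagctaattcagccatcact

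TATAAA, the TATA box, began at position -31 of Cyp2e1 and Cyp2d26 (on the opposite strand in Cyp2d26), -28 of Cyp2a4 and -29 of Cyp2a5, counted from the start. GTTAAT, part of the element bound by the HNF1 factors of kidney and liver, began at -160 of Cyp2a4, -161 of Cyp2a5 and, on the opposite strand, -90 of Cyp2d26. Shifted by 1 base, the windows of Cyp2a4 and Cyp2a5 differed at 4 of 249 bases. Of the 24 members with a window, 9 (37.5%) held TATAAA, against 14.3% of 27025 genes with one, 3 (12.5%) held GTTAAT, against 7.49%, and 2 (8.33%) held CAAAGTCCA, an HNF4-type element, against 0.451%. Cyp2c67 and Cyp3a41a held the last of these, and neither passed the test. These matches are descriptions of letters and not of bound sites.

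The Cyp2j genes, epoxygenases of arachidonic acid in several tissues, did not pass. Cyp2j5, best known from the mouse proximal tubule, had a log2 expression of 13.19, 12.53 and 12.55 in knockdown libraries, against 13.14, 13.67, 13.03 and 13.66 in control libraries. Its groups overlapped through knockdown replicate 1, for a log2 fold change of -0.62 (SE 0.21, 95% CI -1.10 to -0.13) at a limma adjusted p of 0.168. Cyp2j9, Cyp2j11 and Cyp2j6 differed by -0.32, -0.07 and 0.05. Cyp2j13 carried no measurement of the comparison in the libraries titled G. Its values there, between 4.93 and 4.97, differed from each other only by the library offsets shared by 107 genes of the tables, as a filled-in value would leave. The remaining family 2 genes, Cyp2b10, Cyp2b13, Cyp2c67, Cyp2s1 and Cyp2u1, lay between -0.25 and 0.21 with overlapping groups.

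Family 4 enzymes hydroxylate the ends of fatty acids, and Cyp4b1 also activates plant and drug toxins. Cyp4b1 had a log2 expression of 12.65, 12.11 and 12.58 in knockdown libraries, against 13.44, 13.44, 13.62 and 13.52 in control libraries. The controls were close together (SD 0.09) and the knockdown libraries all lay below them, with a log2 fold change of -1.06 (SE 0.12, 95% CI -1.35 to -0.78; limma adjusted p = 0.00449). Cyp4b1 passed in all 7 fits that left out 1 library, and its difference was -1.13 among libraries titled G and -0.95 in the CB6 pair. The pseudogene Cyp4b1-ps2, beside it on chromosome 4, lay at 6.44 to 6.51 in knockdown libraries and, without overlap, at 6.63 to 7.28 in control libraries, with a log2 fold change of -0.43 that did not pass (limma adjusted p = 0.213). Of its 50-base windows 34.2% occur in Cyp4b1, so reads of these genes cannot be fully told apart.

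The Cyp4a genes, omega hydroxylases of fatty acids that in the liver respond to the receptor Ppara, had positive log2 fold changes, and none passed. Cyp4a10 had a log2 expression of 11.30, 10.97 and 11.62 in knockdown libraries, against 10.02, 10.91, 9.43 and 9.43 in control libraries. Its groups did not overlap, yet control replicate 2 lay just below the lowest knockdown library, and the log2 fold change of 1.35 (SE 0.34, 95% CI 0.57 to 2.12) did not pass (limma adjusted p = 0.0770). Without control replicate 2 it was 1.67 and passed (limma adjusted p = 0.00770), and in the other leave-one-out fits it did not pass, with a limma adjusted p of up to 0.230. Cyp4a14 and Cyp4a31 differed by 0.60 and 0.36 with overlapping groups. Cyp4a10, Cyp4a14 and Cyp4a31 shared an order of libraries. Each was highest among controls in replicate 2, lowest among knockdown libraries in replicate 2 and highest there in replicate 3. Cyp4a12a, the main arachidonic acid hydroxylase of the male mouse kidney, followed another order, highest in knockdown replicate 1 (10.78) and control replicate 4 (10.65), and differed by 0.05 (95% CI -0.43 to 0.53).

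**Figure D2:**
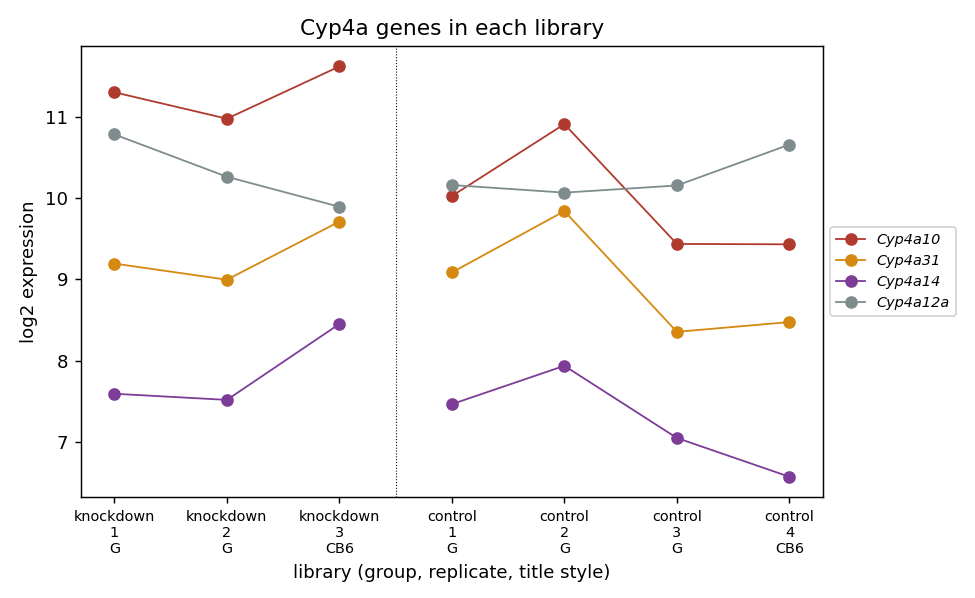
Log2 expression (vertical axis) of the 4 measured Cyp4a genes in each library, the 3 knockdown libraries left of the dotted line and the 4 control libraries right of it, with lines joining libraries of 1 group for each gene. Cyp4a10, Cyp4a31 and Cyp4a14 move together between libraries, with control replicate 2 above the other controls, and Cyp4a12a does not follow them.

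These Cyp4a genes and Cyp4b1 lie within chromosome 4, 115299046 to 115647723, so that a gene that fell (Cyp4b1) is a neighbour of genes with positive log2 fold changes that did not pass. Cyp4a10 shares 24.5% of its 50-base windows with Cyp4a32, and Cyp4a12a shares 48.9% with Cyp4a12b, which leaves their split uncertain, while Cyp4a14 shares 0.235% with any other gene. The Cyp4f genes, known from the breakdown of leukotrienes, and Cyp4v3, a fatty acid hydroxylase, lay between -0.02 and 0.24. Cyp4f16 had knockdown values of 6.86 to 6.92 and control values of 6.61 to 6.70, a small difference without overlap (log2 fold change 0.24; limma adjusted p = 0.225).

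**Figure D3:**
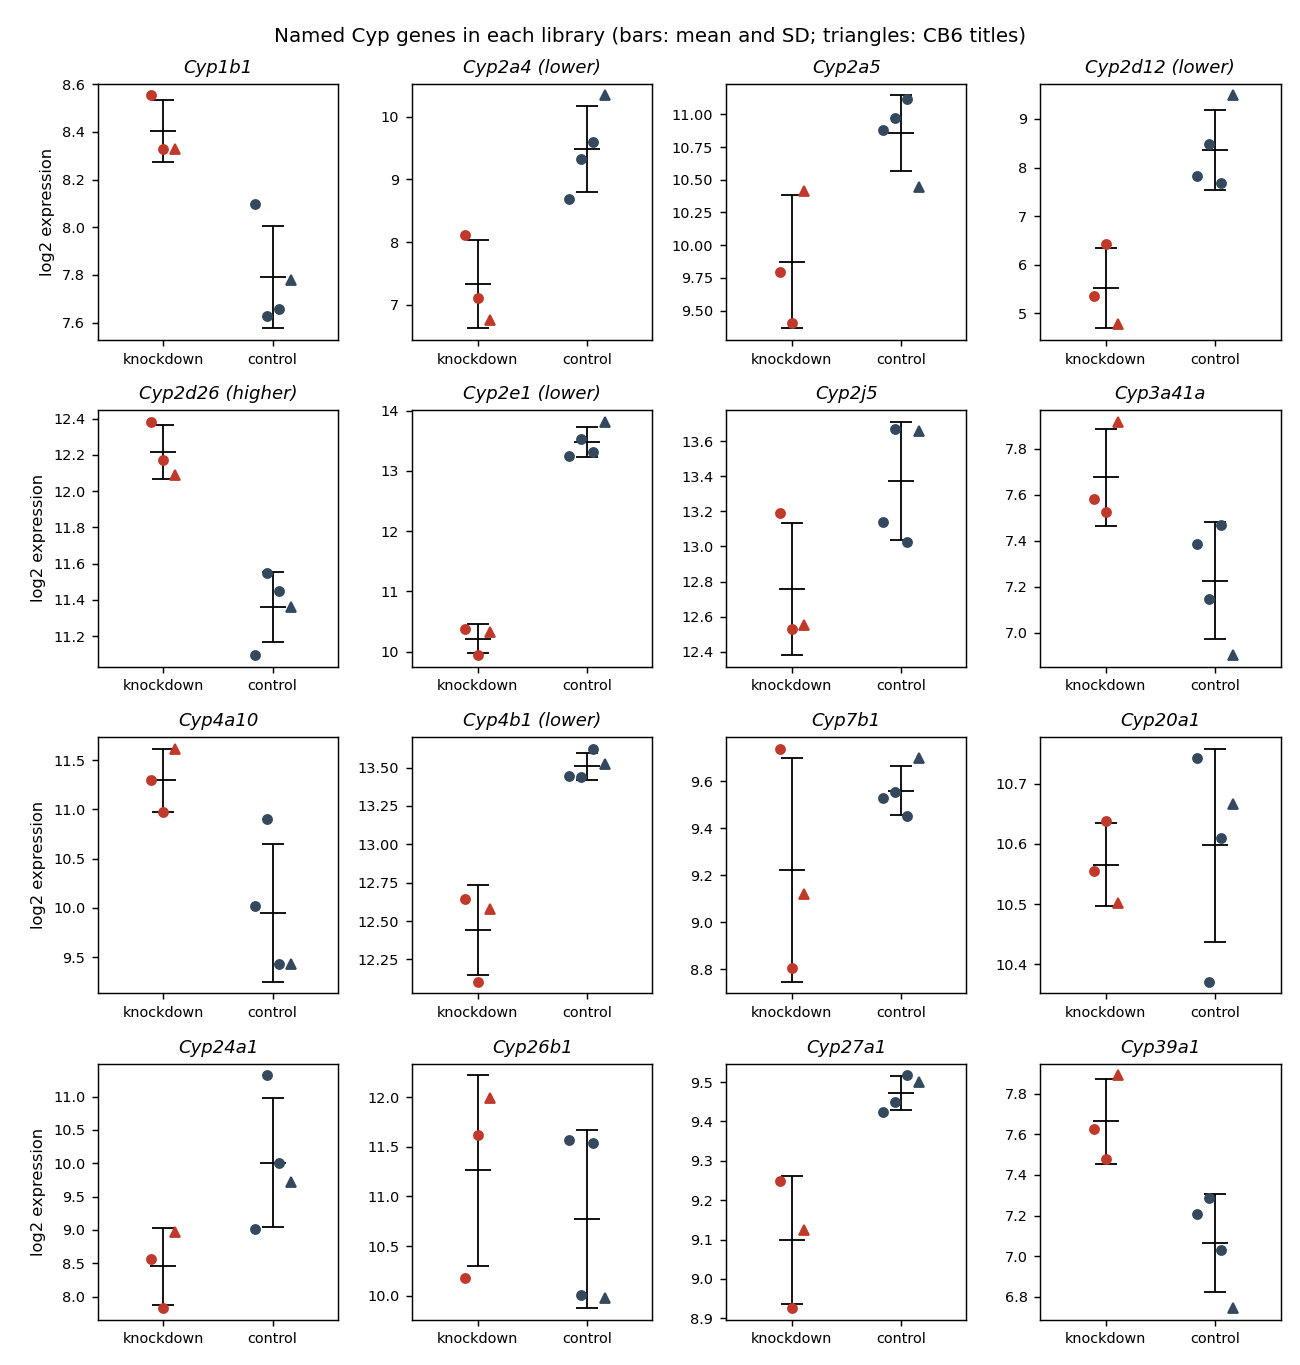
Log2 expression (vertical axes, each with its own range and not starting at 0) of 16 Cyp genes in the 3 knockdown libraries (red, left) and the 4 control libraries (dark, right), with bars for the mean and SD and triangles for the libraries with CB6 titles. Cyp2e1, Cyp4b1, Cyp2d12 and Cyp2a4 are lower and Cyp2d26 is higher in all knockdown libraries, while Cyp7b1, Cyp20a1, Cyp26b1 and Cyp2j5 overlap.

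Among single-member families, Cyp1b1, which oxidises estrogens and aromatic hydrocarbons, was the closest to the threshold. It had a log2 expression of 8.55, 8.33 and 8.33 in knockdown libraries, against 8.10, 7.63, 7.66 and 7.78 in control libraries. All knockdown libraries were higher, with a log2 fold change of 0.61 (SE 0.13, 95% CI 0.31 to 0.92) that just missed it (limma adjusted p = 0.0507). Without control replicate 1 the log2 fold change of Cyp1b1 was 0.71 and passed (limma adjusted p = 0.0198), and with title style as a covariate its limma adjusted p was 0.113. In family 3, Cyp3a41a was at 7.53 to 7.92 in knockdown and 6.90 to 7.47 in control libraries (log2 fold change 0.45; limma adjusted p = 0.191), but 98.6% of its 50-base windows occur in other genes, mainly Cyp3a41b. Cyp3a59 differed by -0.01.

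The enzymes of sterols and vitamins had wide or small differences, and none passed. Cyp27a1, the mitochondrial sterol hydroxylase, had 9.25, 8.93 and 9.12 in knockdown libraries, against 9.42, 9.45, 9.52 and 9.50 in control libraries. The controls were nearly equal and all knockdown libraries lay below them (log2 fold change -0.37, SE 0.09; limma adjusted p = 0.0603). Cyp39a1, an oxysterol hydroxylase, had 7.63, 7.48 and 7.89 in knockdown libraries, against 7.21, 7.29, 7.03 and 6.74 in control libraries, without overlap (log2 fold change 0.60, SE 0.16; limma adjusted p = 0.0884). Cyp7b1, another oxysterol hydroxylase, overlapped through knockdown replicate 1, with a log2 fold change of -0.34 (limma adjusted p = 0.391).

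Cyp24a1, which inactivates the vitamin D hormones, and Cyp26b1, which degrades retinoic acid, had the largest SDs within a group, 0.97 in control mice and 0.96 in knockdown mice. Cyp24a1 had a log2 expression of 8.57, 7.83 and 8.96 in knockdown libraries, against 9.01, 11.32, 9.997 and 9.71 in control libraries. The control libraries alone spanned over 2 log2 units, and the log2 fold change of -1.56 (SE 0.49, 95% CI -2.68 to -0.44) did not pass (limma adjusted p = 0.137). Cyp26b1 had 10.18, 11.62 and 11.99 in knockdown libraries, against 11.57, 10.01, 11.54 and 9.98 in control libraries. Low and high libraries occurred in both groups, and its log2 fold change of 0.49 (95% CI -0.74 to 1.73) was -0.14 within the libraries titled G. Cyp20a1, a member with no well-known substrate, differed by -0.03 (95% CI -0.24 to 0.17), turning to 0.02 in the libraries titled G alone.

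The 2 title styles differed for some members. In the fit with title style as a covariate 4 of 36 members passed, against 1.47% of all symbols. These were Cyp2d26, higher (0.34% of all symbols), and Cyp2e1, Cyp2d12 and Cyp4b1, lower (1.13% of all symbols). In the 5 libraries titled G alone 2 passed, Cyp2e1 (limma adjusted p = 0.00212) and Cyp2a5, both lower, against 0.309% of all symbols in either direction and 0.201% lower, and Cyp4b1 and Cyp2d26 missed the threshold (limma adjusted p = 0.0737 and 0.0917) at differences close to those over all libraries. The CB6 pair has 1 mouse a group and no error of its own.

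**Figure D4:**
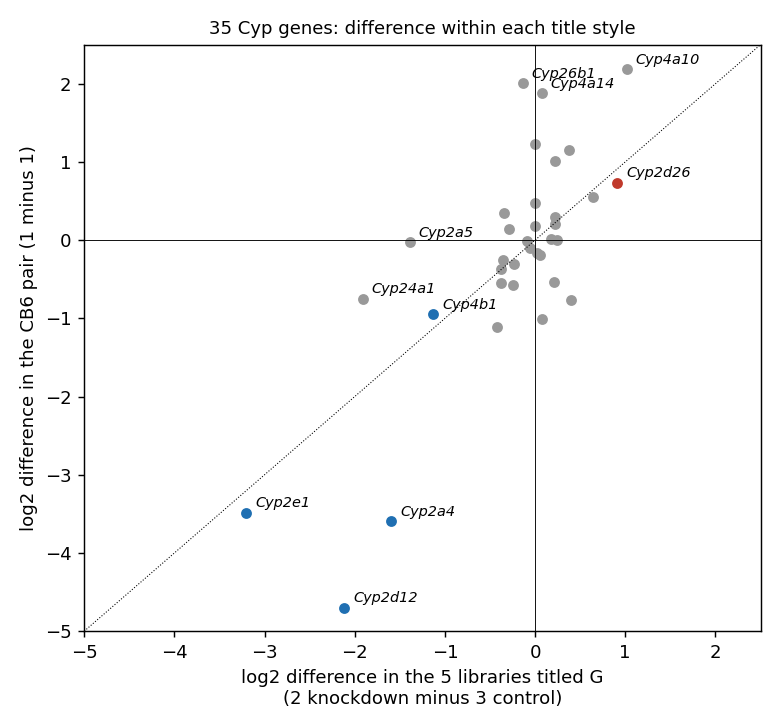
Log2 difference (knockdown minus control) of 35 Cyp genes in the 5 libraries titled G (horizontal axis) and in the CB6 pair (vertical axis), with the dotted line marking equal differences; Cyp2j13 is left out for its filled-in values. Cyp2e1, Cyp4b1 and Cyp2d26 lie near the line, Cyp2d12 and Cyp2a4 differ more in the CB6 pair, and Cyp2a5 differs in the libraries titled G alone.

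No gene of 4 lists around P450 function passed, which in lists of this size is near the 3.02% of all symbols. Of 7 measured genes for electron supply none passed, with a median log2 fold change of 0.06, and the cytochrome Cyb5b and the reductase Cyb5r3 differed by 0.06 and -0.21. Por, the P450 reductase, averaged 10.99 ± 0.13 in knockdown mice (SD, n = 3) against 10.93 ± 0.22 in control mice (SD, n = 4). Of 12 genes of heme synthesis and breakdown none passed (median 0.03), and Alad and Alas1, enzymes of the first steps of heme synthesis, differed by -0.24 and -0.10. Of 12 epoxide hydrolase, prostaglandin and lipoxygenase genes none passed (median -0.06), with Ephx1 at -0.14 and Ptges3 at 0.05. Of 18 transcription factors known to act on Cyp genes none passed either (median -0.07), with Hnf4a at -0.06 and the vitamin D receptor Vdr at 0.08. Ppara, the fatty acid receptor, differed by -0.07.

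Genes known to be higher in males than in females in mouse kidney fell alongside Cyp2e1 and Cyp4b1. Of 9 such genes outside the Cyp family, 8 fell and 1 rose, with a median log2 fold change of -1.66. Over all symbols 2.02% were lower and 0.996% higher. The list was chosen with earlier results of these data known, so its counts are a description and not a test. Kap, the androgen-regulated protein of the proximal tubule, had 14.60, 13.41 and 13.78 in knockdown libraries, against 15.98 in control replicates 1, 2 and 3 and 16.56 in control replicate 4 (difference -2.19, limma adjusted p = 0.00481). Its groups did not overlap, and the files list 1 identical value for control replicates 1, 2 and 3. Ugt2b37, a glucuronosyltransferase, differed by -2.75, the organic anion transporter Slco1a1 by -4.15, the glucuronidase Gusb by -0.96 and Odc1, of polyamine synthesis, by -0.84. Serpina1f, at 8.13 to 8.40 in knockdown and 7.47 to 7.72 in control libraries, was the one that rose. With title style as a covariate 8 were lower and 1 higher, against 1.13% and 0.34% of all symbols. In the libraries titled G alone 3 were lower, against 0.201%, and with 1 library left out between 6 and 8. For the fits with 1 library left out, the share of all symbols was not counted.

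Among Cyp genes with the same known bias, some passed and some did not. Cyp2e1, Cyp4b1, Cyp2j5, Cyp7b1 and Cyp4a12a are known to be higher in male mouse kidney, a grouping made after their values were seen. Cyp2e1 and Cyp4b1 fell (-3.26 and -1.06), while Cyp2j5, Cyp7b1 and Cyp4a12a, at -0.62, -0.34 and 0.05, did not pass. Of 4 listed genes that are higher in female mouse kidney none passed, and all had positive log2 fold changes, from 0.30 to 0.66, with the prolactin receptor Prlr at 0.66 and Slc22a19 at 0.37. The Y-linked genes Ddx3y, Eif2s3y and Kdm5d had values in all 7 libraries and differed by 0.04, 0.13 and 0.22. None passed, and Kdm5d was higher in every knockdown library (limma adjusted p = 0.108). Circulating hormones were not analysed here.

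**Figure D5:**
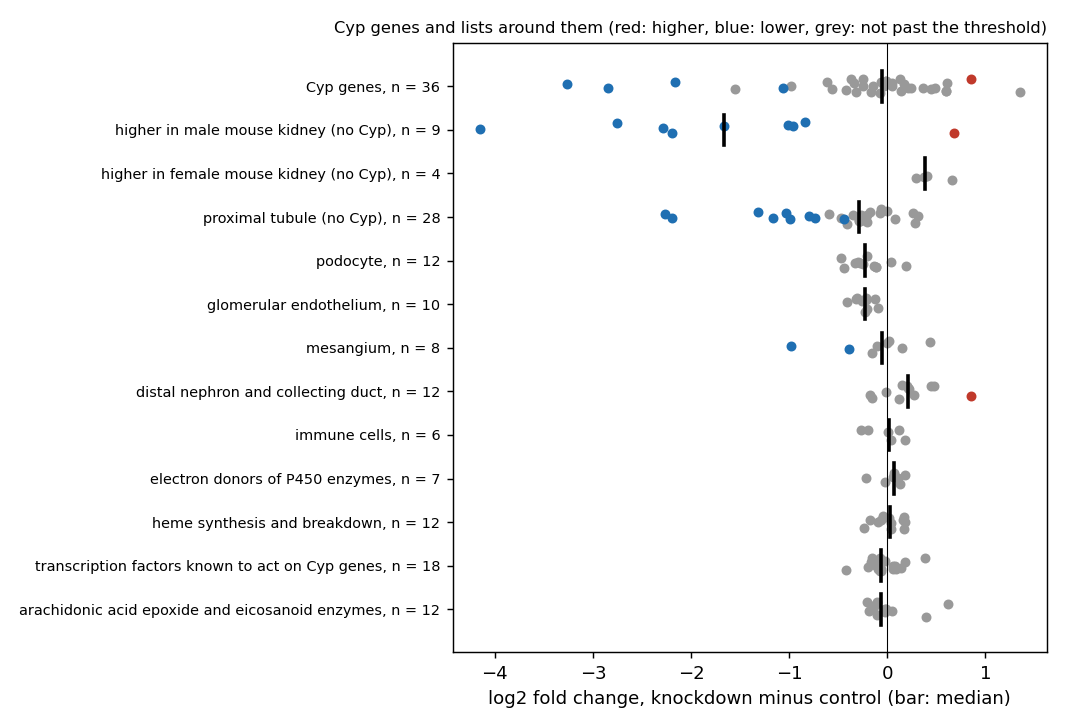
Log2 fold change (knockdown minus control, horizontal axis) of each gene of the Cyp family and of 12 lists around it, with a bar at the median, red for higher, blue for lower and grey for genes not past the threshold. The list of genes higher in male mouse kidney lies at a median of -1.66, the Cyp genes at -0.05 and the lists of electron supply, heme and transcription factors near 0.

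Some markers of the proximal tubule, where within the kidney Cyp2e1 and Cyp4b1 are best known, were lower in the same libraries. Of 28 markers without Cyp genes 9 fell and none rose, against 2.02% of all symbols lower, with a median log2 fold change of -0.29. The urate transporter Slc22a12 had the largest difference among them (-2.26), followed by Kap, and Acsm2 (-1.03) and the anion transporter Slc22a6 (-1.17) fell as well. Kap stands in the male list too, and both lists were chosen with earlier results of these data known. Log2 fold changes were negative for 24 markers and positive for 4. Over all 12958 symbols 5682 were negative and 7276 positive. Negative values were also found for 10 of 12 podocyte and 10 of 10 glomerular endothelial markers, but for 3 of 12 of the distal nephron and collecting duct. Among the proximal tubule markers that did not pass, Lrp2 (-0.21), Aqp1 (-0.00) and Slc5a12 (0.07) overlapped between groups. Slc6a19 (-0.29), lower without overlap, and the fatty acid transporter Slc27a2 (0.31), higher without overlap, did not pass either. The summed level of the 28 markers, on the log2 scale, was 18.30 to 18.68 in knockdown and 18.63 to 19.03 in control libraries, with a narrow overlap. Summing was done on the linear scale, where the genes with the highest values weigh most. Kap, among them, was at 13.41 to 14.60 in knockdown and 15.98 to 16.56 in control libraries. A sum without Kap was not taken, and the sum is no measure of tubule RNA as a whole. The part of tubule RNA in the falls of Cyp genes was not tested. With title style as a covariate 6 of the 28 markers were lower, against 1.13% of all symbols, and in the libraries titled G alone 1 was, against 0.201%. With 1 library left out between 2 and 10 were lower, and the count was 2 when knockdown replicate 2 was dropped, 4 for knockdown replicate 3 and 5 for control replicate 4. The share of all symbols in those fits was not counted, so whether these counts moved together with all symbols was not tested. The Cyp2e1 difference of -3.26 was larger than that of any of the 28 markers, and that of Slco1a1 in the male list (-4.15) was larger still.

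Markers of other cell types were read against the 3.02% of all symbols that passed. No marker of 12 podocyte, 10 glomerular endothelial or 6 measured immune genes passed, with medians of -0.23, -0.23 and 0.02. Podxl differed by 0.19, Plat and Ehd3 by -0.09 and -0.23, and Csf1r and Ptprc by 0.00 and -0.26. Of 8 mesangial markers, 1 of them filled in, Serpine2 (-0.39) and Sfrp2 (-0.98) fell, against 2.02% of all symbols. Each passed in 1 of 7 leave-one-out fits, and neither passed with title style as a covariate (limma adjusted p = 0.0967 and 0.0644). Slc4a1 (0.86), the anion exchanger, rose among 12 markers of the distal nephron and collecting duct, whose median was 0.21. It passed in 4 of 7 leave-one-out fits and with title style as a covariate (limma adjusted p = 0.0343). Of 6 adrenal cortex genes 2 were measured, Star (0.12) and Akr1b7 (0.07), and neither passed. Of 10 hepatocyte genes 1 was measured, Ttr, which fell (-2.03, limma adjusted p = 0.0499) and passed in none of the leave-one-out fits. With title style as a covariate it did not pass (limma adjusted p = 0.0914).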

How the data were processed

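The authors deposited 1 table per library with 12958 gene symbols and a value on a log2 scale; the base is read from the values, since no source used here states it. Reads were aligned with BWA to mm10, per the submitters' processing notes, after poly-A selection and ribosomal RNA depletion, per the labels. No source used here gives the counting, the use of strand or the normalization; sorted by value, the 7 libraries lay within 0.05 of each other at 84.3% of ranks. The knockdown-control difference was fitted over all symbols with limma 3.58.1 (R 4.3.3, trend on), and p-values were adjusted by Benjamini-Hochberg (BH) with a threshold of 0.05. Requiring 3 libraries above the lowest value removed 0 symbols, so all 36 members were tested.

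Across genes, the 2 CB6 libraries deviated from their groups in opposite directions (r = -0.958, genes not being independent), as an adjustment before deposit could leave. P-values of the fit with 5 residual degrees of freedom are then too small. The fit with title style (4) is therefore given for the Cyp genes and for the lists in which a gene passed. In 107 genes, Cyp2j13 among them, values in the libraries titled G differed only by shared offsets (tolerance 0.003).

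Coordinates are from GENCODE M21 (GRCm38, the build of mm10), which matched all 36 members, and promoters from RefSeq on GRCm38.p6, which matched 24. Shared windows are 50-base stretches of GENCODE transcripts. Named members passed the threshold, had the highest mean of their family, or differed by at least 0.5 without overlap; of each list up to 4 genes past the threshold, or else the 2 highest, were to be named, and other genes were named after their values were seen; 1 podocyte marker chosen so is not reported here. Members and lists were chosen with earlier results of these data known. The fit was tested on simulated data. Alternatives were other normalizations, filters, a pseudocount, no trend, library weights, title style, other thresholds and leaving out each library.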

Additional observations from a re-analysis of the deposited data

Results flagged for a closer look

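In 3 of the 35 Cyp genes with measured values, 1 control library stood far from the other controls by Dixon's test at n = 4, which chance gives in about 1 in 20 groups. Cyp4f13 was at 7.77 in control replicate 2, below the other controls. Cyp4a12a was at 10.65 in control replicate 4, above the other controls, and Cyp4v3 was at 8.33 in control replicate 3, below the other controls. None of these genes passed the threshold.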

How the results depend on the processing

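No paired analysis was possible because the labels give no replicate numbers that link knockdown to control mice. Of the 36 Cyp genes 1 was called higher and 4 lower, against 0.996% and 2.02% of all symbols. For the other settings, shares of all symbols were counted only with title style and in the libraries titled G alone. Elsewhere, whether a count moved together with all symbols was not tested. The count of higher genes was 2 with quantile normalization, a pseudocount of 64, the upper part of genes by mean or without the filled-in genes, 4 at an adjusted p under 0.1 and 0 in the libraries titled G alone. The count of lower genes was 2 in the libraries titled G alone, which hold fewer samples, and 2 at an adjusted p under 0.01. With library weights 12 were higher and 14 lower, with a median of -0.10, and the share of all symbols was not counted. In that fit Cyp2d12 was at -4.17 and Cyp2a5 at -0.34. Their CB6 pair, with 1 mouse a group, differed by -4.70 and -0.03. The cause of these counts was not tested. With 1 library left out, 1 to 2 were higher and 3 to 4 lower, and the median log2 fold change ran from -0.10 to 0.015. Without multi-copy clusters the median was -0.25, the value of Cyp2s1. Cyp20a1 turned to 0.022 in the libraries titled G alone and to 0.016 without control replicate 1 (range -0.11 to 0.016 with 1 library left out), and Cyp26b1 to -0.14 in the libraries titled G alone. No other value of the 16 named members changed direction in these settings. Median scaling, no intensity trend and title style left both counts within 1.5 times. Library medians lay between 9.15 and 9.16 before scaling, so median scaling had little to change. Leaving out the filter could not change the counts, because the filter removed 0 symbols. With 3 against 4 mice and no read counts, differences such as that of Cyp24a1 could not be separated from the spread between mice. For the gene lists, the counts with title style, in the libraries titled G alone and with 1 library left out were added after the data had been seen.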

Other observations

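Cyp51, the sterol demethylase of cholesterol synthesis, is a cytochrome P450 whose symbol has no subfamily letter and so lies outside the 36 genes. Knockdown mice averaged 10.57 ± 0.15 log2 units (SD, n = 3) and control mice 10.72 ± 0.11 log2 units (SD, n = 4). The difference of -0.15 did not pass (limma adjusted p = 0.379).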
